A study of Mus musculus with 14 samples.

Results

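The 36 genes described here act in mitosis, the part of the cell cycle in which the copied chromosomes are attached to the spindle and parted. They were chosen by name for their roles, when earlier results of these data were already known. A gene was measured where a probe's transcript accession led to it. Probes were found for 34 of the 36, of 31240 genes tested in all, and Cenpf and Mki67 were not reached through an accession, so that their expression is not analysed here. The cells are FDCPmix, a mouse bone marrow progenitor line that depends on interleukin-3. They were grown in one maintenance medium with horse serum and a source of interleukin-3 (WEHI conditioned medium), stained with antibodies, sorted by flow cytometry and measured on single-colour arrays. The groups were Gr1+ cells (3 arrays), Kit-Gr1- cells (3), Kit+Gr1-Sca1hi cells (3), Kit+Gr1-Sca1lo cells (3) and unfractionated cells (2), with no treatment or allele that tells the groups apart beyond the surface markers. Gr1 is an antigen of granulocytes, Kit the receptor for stem cell factor and Sca1 a surface protein encoded by Ly6a. The replicates are biological per the design text, and the labels name no separate animals for this line.

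Entry into mitosis is driven by the kinase Cdk1 bound to cyclin A or B, with the kinases of the Plk and Aurora families. Kinetochores, built on the centromere, bind spindle microtubules, and the spindle checkpoint holds the cell back until every chromosome is attached, after which the anaphase-promoting complex marks securin and cyclin B for destruction and separase parts the sister chromatids. Most of these genes are transcribed in late S, G2 and M phase, so that their mRNA in a cell population is widely read as a measure of cycling. In blood formation, progenitors divide and late granulocytes have left the cycle. In bulk RNA, fewer dividing cells and less mitotic RNA per dividing cell cannot be told apart.

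Levels are log2 processed intensities relative to the 75th percentile of the same array, so that 0 is that percentile. Errors after ± are standard errors of a limma fit unless SD is written. Rose and fell are written where the Benjamini-Hochberg adjusted p over all 31240 genes was under 0.05, with a change of at least 2-fold (1 on the log2 scale) unless "at any fold" is written. The arrays sat on 4 slides. Replicate 1 of every sorted fraction lay on slide 1, slide 2 carried replicate 2 of Gr1+, Kit-Gr1- and Sca1lo, slide 3 replicate 3 of Gr1+ and Kit-Gr1- with Sca1hi replicate 2, and slide 4 replicate 3 of Sca1hi and Sca1lo. Differences within a slide against Kit+Gr1- cells therefore used both fractions on slide 1, Sca1lo alone on slide 2 and Sca1hi alone on slide 3.

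Between 79.5% and 98.9% of spots were well above background on the sorted arrays. Replicate 3 of Gr1+, Sca1hi and Sca1lo had compressed signals, with interquartile ranges of the log2 signal of 2.35 to 3.41 against 4.17 to 4.92 on the other 9 sorted arrays, so results are also given without these 3. In Gr1+ cells all 10 measured neutrophil markers rose against Kit+Gr1- cells, and their summed level, in multiples of the array's 75th percentile, was 1489 to 2081 in Gr1+ cells and 103 to 364 in Kit+Gr1- cells. Of the eosinophil markers 4 of 5 rose in the same comparison, summing to 108 to 283 in Gr1+ cells and 0.479 to 3.29 in Kit+Gr1- cells, and of the monocyte and macrophage markers 4 of 5, summing to 30.9 to 52.3 in Gr1+ cells and 1.89 to 2.98 in Kit+Gr1- cells. In Kit-Gr1- cells 5 of 9 erythroid markers rose against Kit+Gr1- cells, and their sum was 26.1 to 48.2 in Kit-Gr1- cells and 2.77 to 5.99 in Kit+Gr1- cells. Of the megakaryocyte markers 3 of 6 (Gp1ba, Gp9 and Pf4) also rose in Kit-Gr1- cells, with sums of 58.9 to 113 in Kit-Gr1- cells and 17.7 to 43.1 in Kit+Gr1- cells. Of the mast cell and basophil markers 4 of 6 (Mcpt8, Prss34, Cpa3 and Ms4a2) rose in Gr1+ cells, with sums of 195 to 424 in Gr1+ cells and 63.4 to 180 in Kit+Gr1- cells. In Kit-Gr1- cells these markers summed to 122 to 286, which overlapped both. There 5 of the 6 lay higher than in Kit+Gr1- cells, with a median of 1.27, and none passed. None of 6 lymphoid markers passed in any comparison. Of the gate genes, Kit mRNA fell by 2.21 in Kit-Gr1- against Kit+Gr1- cells, Ly6c1 rose by 6.74 and Ly6a by 4.15 in Gr1+ against Kit+Gr1- cells, and Ly6a was 2.32 higher in Sca1hi than in Sca1lo cells without passing (adjusted p = 0.148). Kit mRNA was not lower in Gr1+ than in Kit+Gr1- cells (0.29 higher, not passed), and it fell by 2.50 in Kit-Gr1- against Gr1+ cells. Ly6g was not among the genes tested. The part of other cell types in the mitosis results was not tested.

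Mitosis mRNAs were detected in every sorted fraction. Of the 34, 33 were well above background on all 12 sorted arrays, and the other, Ccnb2, on the 11 arrays where its spot was kept. The mean level over the 34 genes was 1.60, 2.20 and 2.39 on the 3 Gr1+ arrays, 2.35, 2.24 and 2.29 on the 3 Kit-Gr1- arrays, 2.40, 2.74 and 2.11 on the 3 Sca1hi arrays and 2.33, 2.48 and 2.24 on the 3 Sca1lo arrays. Gr1+ replicate 1 was the lowest sorted array and Sca1hi replicate 2 the highest, and all 4 fractions overlapped. Averages over arrays were 2.06 ± 0.41 in Gr1+ cells, 2.29 ± 0.06 in Kit-Gr1- cells and 2.38 ± 0.22 in Kit+Gr1- cells (SD, n = 3, 3 and 6 arrays). Unfractionated replicate 2 measured 2.23, inside the range of the sorted arrays, and unfractionated replicate 1, whose signals were the most compressed of all 14 arrays (interquartile range 1.78), measured 0.51.

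**Figure D1:**
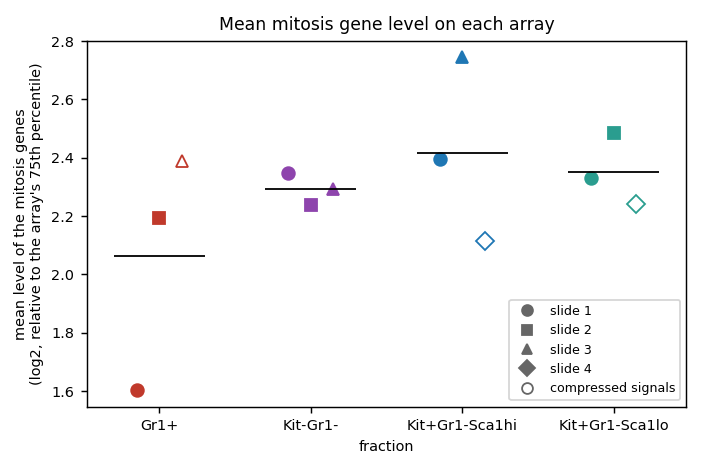
Mean log2 level of the 34 mitosis genes on each sorted array (vertical axis, relative to the array's 75th percentile) by fraction, with symbols for the slide, open symbols for arrays with compressed signals and a line at each fraction's mean. The 3 Gr1+ arrays run from 1.60 to 2.39 and the 3 Kit-Gr1- arrays from 2.24 to 2.35.

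**Figure D2:**
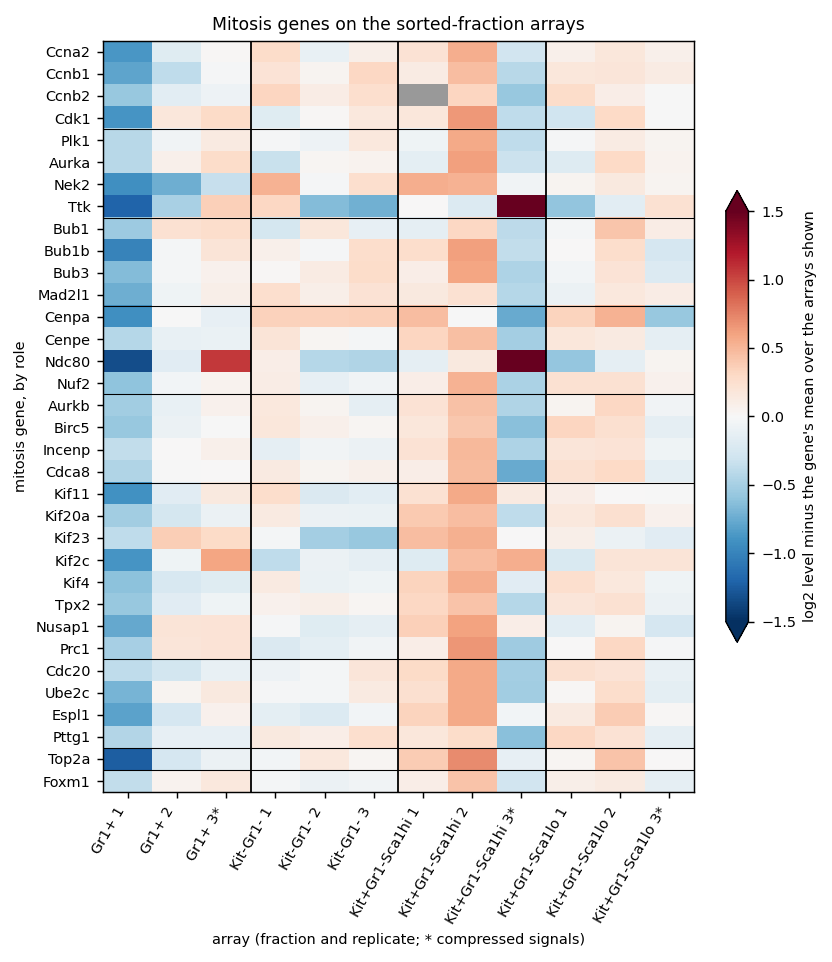
Level of each mitosis gene on each of the 12 sorted arrays minus that gene's mean over the arrays, on the log2 scale, with genes down the page by role (black lines part the roles), arrays across and a missing spot in grey. The column of Gr1+ replicate 1 is below the gene's mean for each of the 34 genes, and the columns of the other 2 Gr1+ arrays are not.

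The first comparison asked how the mitosis genes of Gr1+ cells differ from those of both Kit+Gr1- fractions (3 against 6 arrays). All 34 lay lower in Gr1+ cells, by 0.05 to 0.88 on the log2 scale, with a median difference of -0.28, or 82.4% of the Kit+Gr1- level, where the median of all genes was -0.04. None of the 34 passed the test with a 2-fold change in either direction, where 3.04% of all genes were called higher and 1.29% lower. At any fold 1 of the 34 fell, Nek2, a share of 2.94% against 3.22% of all genes. This fit left out the slide. With the slide as a block 12 of the 34 fell at any fold, 35.3% against 10.2% of all genes. The direction was shared more widely than the calls: 100% of the members against 55.9% of all genes lay lower in Gr1+ cells, and 29 of 34 (85.3%) lay lower within each of slides 1, 2 and 3, against 21.8% of all genes. On slide 3 a compressed array, Gr1+ replicate 3 (interquartile range 3.04), was set against Sca1hi replicate 2 (4.92). On each sorted array 29 to 33 members lay above the 75th percentile, and the median of all genes lay below it. The shares over all genes were not matched for level, and the part of compression was not tested. Genes whose Gr1+ arrays all lay below the 6 Kit+Gr1- arrays numbered 2 (Nek2 and Kif4), or 5.88% against 3.91% of all genes.

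The size of this difference turned on single arrays. Within slides 1, 2 and 3 the members' median was -0.81, -0.27 and -0.42, where the median of all genes was 0.01, -0.09 and 0.39. Without Gr1+ replicate 1 the members' median was -0.08 against -0.03 over all genes, and 24 of 34 genes were lower. Without Sca1hi replicate 2 it was -0.19 against -0.20 over all genes, and 30 of 34 were lower. Without the 3 compressed arrays it was -0.58 against 0.07, and 2 genes fell by at least 2-fold (Nek2 and Top2a, 5.88% of members against 2.91% of all genes) with 13 lower at any fold (38.2% against 8.38%). With the slide as a block the median was -0.49 against 0.17, no gene passed at 2-fold (2.07% of all genes fell) and 12 were lower at any fold (35.3% against 10.2%). With both changes 2 fell at 2-fold (3.05% of all genes) and 21 at any fold (61.8% against 13.8%). The fits without the compressed arrays kept replicates 1 and 2 of Gr1+, Sca1hi and Sca1lo. Gr1+ replicate 1, the lowest sorted array, thus weighed more in these fits than in the first. Under median scaling, quantile normalization, normexp background correction and no scaling, all 34 also lay lower, with medians that differed from that of all genes by -0.24, -0.31, -0.24 and -0.24. Median scaling and no scaling shift all genes of an array alike. Their differences from all genes were therefore bound to stay close to that of the first fit, and do not test it.

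**Figure D3:**
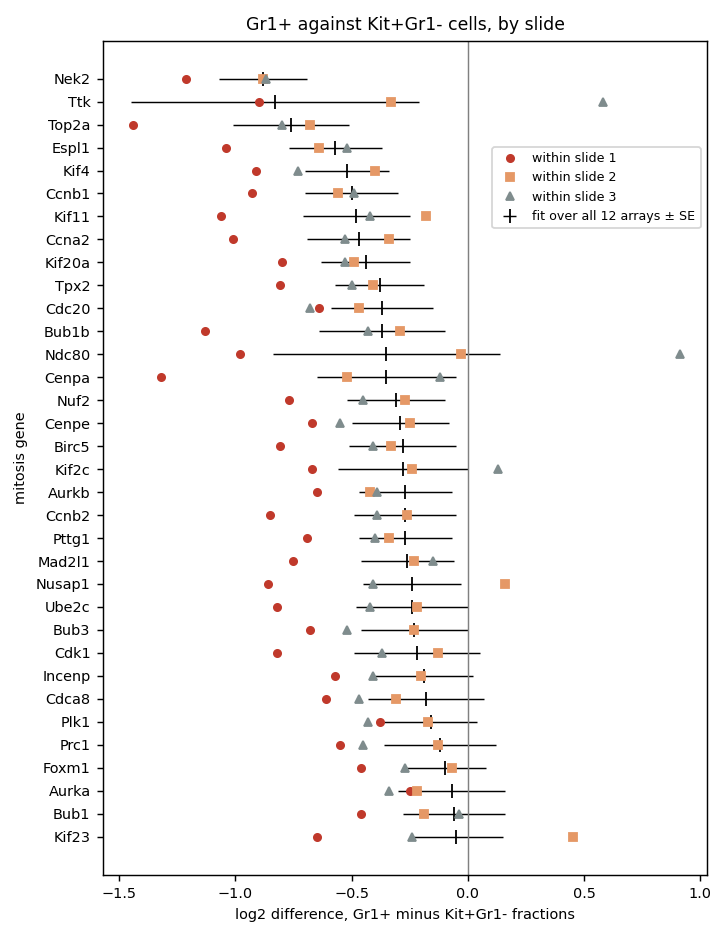
Difference between Gr1+ and Kit+Gr1- cells for each mitosis gene (horizontal axis, log2, Gr1+ minus Kit+Gr1-), ordered by the fitted value, with the fit over 12 arrays and its standard error in black and the differences within slides 1, 2 and 3 as coloured symbols. Values within slide 1 lie furthest left for most genes, and Ttk, Ndc80, Kif2c, Kif23 and Nusap1 have 1 slide to the right of 0.

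Among cyclins and their kinase, Ccnb1, the cyclin B1 that activates Cdk1 at mitotic entry, measured 1.03, 1.44 and 1.80 on the Gr1+ arrays, 2.03, 1.86 and 2.13 on the Kit-Gr1- arrays, 1.94, 2.29 and 1.41 on the Sca1hi arrays and 1.99, 2.00 and 1.95 on the Sca1lo arrays. The Gr1+ arrays lay below all others but Sca1hi replicate 3, and all 3 lay below the Kit-Gr1- arrays. Its difference between Gr1+ and Kit+Gr1- cells was -0.50 ± 0.20 (adjusted p = 0.206), and it fell at any fold with the slide block (-0.67 ± 0.15, adjusted p = 0.0126). Ccna2, the cyclin A2 of S phase and early mitosis, measured 2.26, 2.95 and 3.14 on Gr1+ arrays, 3.40, 3.02 and 3.21 on Kit-Gr1- arrays, 3.34, 3.67 and 2.84 on Sca1hi arrays and 3.20, 3.30 and 3.20 on Sca1lo arrays. Gr1+ replicate 1 was the lowest of these and the groups overlapped, with a difference from Kit+Gr1- of -0.47 ± 0.22 (adjusted p = 0.306). Cdk1, the kinase itself, measured 1.83, 2.89 and 3.00 on Gr1+ arrays, 2.54, 2.73 and 2.87 on Kit-Gr1- arrays, 2.88, 3.37 and 2.33 on Sca1hi arrays and 2.42, 3.02 and 2.71 on Sca1lo arrays. Its low value in Gr1+ cells was on replicate 1 alone, and the difference of -0.22 ± 0.27 was smaller than its error. Ccnb2, the cyclin B2, differed by -0.27 ± 0.22, in a fit over 11 arrays since its spot on Sca1hi replicate 1 was marked as an outlier by the scanner software.

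Nek2 had the largest difference of the 34 between Gr1+ and Kit+Gr1- cells. It encodes a kinase that parts the centrosomes before mitosis. It measured -0.66, -0.47 and -0.09 on the Gr1+ arrays, 0.78, 0.24 and 0.51 on the Kit-Gr1- arrays, 0.80, 0.78 and 0.21 on the Sca1hi arrays and 0.30, 0.41 and 0.30 on the Sca1lo arrays. Every Gr1+ array lay below every other sorted array. Against Kit+Gr1- cells it fell at any fold by 0.88 ± 0.19 (54.5% of the level, adjusted p = 0.0119), with -1.21, -0.88 and -0.87 within slides 1, 2 and 3. It passed in 21 of 25 alternative settings, over which the adjusted p ran from 0.000164 to 0.542. It did not pass without Gr1+ replicate 1 (0.0697) or replicate 2 (0.0849), with all 14 arrays in the fit (0.0636) or with median scaling (0.542). Nek2 has 1 probe, well above background on all 12 sorted arrays, so the probe settings were bound to keep its values. The replicate block and leaving out a Kit-Gr1- array were bound to keep its difference. The 21 are therefore not separate tests. On the unfractionated arrays Nek2 measured -0.49 and -0.08.

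None of the other 3 mitotic kinases passed. Ttk, also called Mps1, which starts the spindle checkpoint, measured -3.26, -2.55 and -1.70 on Gr1+ arrays, -1.75, -2.71 and -2.78 on Kit-Gr1- arrays, -2.06, -2.27 and 1.04 on Sca1hi arrays and -2.65, -2.22 and -1.83 on Sca1lo arrays. The value on Sca1hi replicate 3, a compressed array, stood far above the other 11, and the groups overlapped. Its difference between Gr1+ and Kit+Gr1- cells was -0.83 ± 0.62 (adjusted p = 0.769), with -0.90, -0.33 and 0.58 within slides 1, 2 and 3. Plk1, which acts from entry to cytokinesis, and Aurka, which matures the spindle poles, differed by -0.16 ± 0.20 and -0.07 ± 0.23.

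In the spindle checkpoint, the median difference of the 4 genes was -0.25 and none passed. Bub1b, which encodes the inhibitor BubR1 of the anaphase-promoting complex, measured 1.50, 2.47 and 2.69 on Gr1+ arrays, 2.58, 2.48 and 2.76 on Kit-Gr1- arrays, 2.76, 3.12 and 2.13 on Sca1hi arrays and 2.50, 2.76 and 2.25 on Sca1lo arrays, a difference of -0.37 ± 0.27 from Kit+Gr1- cells (adjusted p = 0.738). Apart from Gr1+ replicate 1, its values on the fractions overlapped. Mad2l1, the Mad2 protein that Bub1b joins in that inhibitor, measured 0.58, 1.24 and 1.40 on Gr1+ arrays, 1.56, 1.40 and 1.52 on Kit-Gr1- arrays, 1.45, 1.54 and 0.88 on Sca1hi arrays and 1.22, 1.47 and 1.42 on Sca1lo arrays. Its Gr1+ arrays lay at or below the Kit-Gr1- arrays and overlapped the Kit+Gr1- arrays, with a difference from Kit+Gr1- cells of -0.26 ± 0.20. Bub1, a checkpoint kinase at the kinetochore, and Bub3, which brings Bub proteins there, differed by -0.06 ± 0.22 and -0.23 ± 0.23.

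At the centromere and kinetochore, Cenpa, the histone H3 variant that marks the centromere, measured 0.68, 1.60 and 1.48 on Gr1+ arrays, 1.94, 1.95 and 1.96 on Kit-Gr1- arrays, 2.06, 1.60 and 0.85 on Sca1hi arrays and 1.93, 2.12 and 1.03 on Sca1lo arrays. The Kit-Gr1- arrays were nearly equal, and the low Kit+Gr1- values were both on compressed arrays. The difference between Gr1+ and Kit+Gr1- cells was -0.35 ± 0.30. Ndc80, which binds microtubules at the kinetochore, measured -1.98, -0.81 and 0.42 on Gr1+ arrays, -0.54, -1.07 and -1.10 on Kit-Gr1- arrays, -0.78, -0.50 and 1.22 on Sca1hi arrays and -1.22, -0.78 and -0.60 on Sca1lo arrays. Its highest values were on the compressed arrays of Sca1hi and Gr1+, its difference was -0.35 ± 0.49, and within slides it measured -0.98, -0.03 and 0.91. Cenpe, a kinetochore motor, and Nuf2, the partner of Ndc80, differed by -0.29 ± 0.21 and -0.31 ± 0.21.

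The chromosomal passenger complex, which corrects wrong attachments and guides cytokinesis, had 4 members lower by 0.18 to 0.28 in Gr1+ cells and none passed. Birc5, its subunit survivin, measured 4.48, 4.96 and 5.04 on Gr1+ arrays, 5.21, 5.12 and 5.07 on Kit-Gr1- arrays, 5.22, 5.45 and 4.42 on Sca1hi arrays and 5.37, 5.29 and 4.91 on Sca1lo arrays (-0.28 ± 0.23 between Gr1+ and Kit+Gr1- cells, adjusted p = 0.859). Aurkb, its kinase, measured 0.46, 0.87 and 1.04 on Gr1+ arrays, 1.14, 1.02 and 0.85 on Kit-Gr1- arrays, 1.20, 1.42 and 0.53 on Sca1hi arrays and 1.02, 1.29 and 0.93 on Sca1lo arrays (-0.27 ± 0.20, adjusted p = 0.763). For both genes the values of Gr1+ and Kit+Gr1- cells overlapped, with Sca1hi replicate 3 the low Kit+Gr1- array. Incenp and Cdca8 (borealin), the scaffold subunits, differed by -0.19 ± 0.21 and -0.18 ± 0.25.

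Of the 8 spindle motors and microtubule proteins none passed, with a median difference of -0.33 between Gr1+ and Kit+Gr1- cells. Kif4, a kinesin of chromosome arms and the central spindle, measured 1.53, 1.90 and 1.96 on Gr1+ arrays, 2.28, 2.04 and 2.08 on Kit-Gr1- arrays, 2.48, 2.69 and 1.97 on Sca1hi arrays and 2.40, 2.30 and 2.08 on Sca1lo arrays. The Gr1+ arrays lay below all 9 others, the nearest being Sca1hi replicate 3, and the difference from Kit+Gr1- cells was -0.52 ± 0.18 (adjusted p = 0.107), or -0.68 ± 0.13 with the slide block (adjusted p = 0.00798). Kif11, the kinesin Eg5 that pushes the spindle poles apart, measured -1.59, -0.86 and -0.54 on Gr1+ arrays, -0.42, -0.90 and -0.84 on Kit-Gr1- arrays, -0.46, -0.12 and -0.55 on Sca1hi arrays and -0.59, -0.68 and -0.69 on Sca1lo arrays. Gr1+ replicate 1 stood apart below the rest, which overlapped, and the difference was -0.48 ± 0.23. Kif20a and Kif23, kinesins of cytokinesis, differed by -0.44 ± 0.19 and -0.05 ± 0.20, and the 2 probes of Kif23 had opposite signs. Tpx2, Kif2c, Nusap1 and Prc1, which assemble, trim, stabilise and bundle spindle microtubules, differed by -0.38 ± 0.19, -0.28 ± 0.28, -0.24 ± 0.21 and -0.12 ± 0.24.

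Among genes of sister separation, Espl1, which encodes separase, measured 0.13, 0.68 and 1.00 on Gr1+ arrays, 0.79, 0.73 and 0.89 on Kit-Gr1- arrays, 1.27, 1.51 and 0.90 on Sca1hi arrays and 1.07, 1.32 and 0.95 on Sca1lo arrays. All 3 Kit-Gr1- arrays lay below the 6 Kit+Gr1- arrays, while the Gr1+ arrays overlapped them through the compressed replicates. Its difference between Gr1+ and Kit+Gr1- cells was -0.57 ± 0.20 (adjusted p = 0.119), or -0.74 ± 0.14 with the slide block (adjusted p = 0.00635). Cdc20, the activator of the anaphase-promoting complex, measured 4.83, 4.93 and 5.10 on Gr1+ arrays, 5.13, 5.18 and 5.39 on Kit-Gr1- arrays, 5.50, 5.78 and 4.70 on Sca1hi arrays and 5.45, 5.41 and 5.10 on Sca1lo arrays. The Gr1+ arrays lay at the low end, overlapped by Sca1hi replicate 3 and Sca1lo replicate 3, and the difference was -0.37 ± 0.22 (adjusted p = 0.569). Pttg1, the securin that holds separase back, and Ube2c, a ubiquitin-conjugating enzyme of the complex, differed by -0.27 ± 0.20 and -0.24 ± 0.24.

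Top2a, the topoisomerase that untangles sister chromatids, measured 1.16, 2.14 and 2.31 on Gr1+ arrays, 2.36, 2.55 and 2.43 on Kit-Gr1- arrays, 2.78, 3.11 and 2.27 on Sca1hi arrays and 2.42, 2.82 and 2.40 on Sca1lo arrays. Gr1+ replicate 1 lay 1 log2 unit or more under most other arrays, and Gr1+ replicate 3 overlapped Sca1hi replicate 3. Its difference between Gr1+ and Kit+Gr1- cells was -0.76 ± 0.25 (59.0% of the level, adjusted p = 0.0946). It fell by 1.13 ± 0.25 without the 3 compressed arrays (adjusted p = 0.0174), and over the 25 alternatives its adjusted p ran from 0.00202 to 0.969. Foxm1, the transcription factor that drives many genes of this set in late G2, measured 0.82, 1.24 and 1.35 on Gr1+ arrays, 1.16, 1.10 and 1.14 on Kit-Gr1- arrays, 1.29, 1.61 and 0.90 on Sca1hi arrays and 1.27, 1.32 and 1.05 on Sca1lo arrays. These overlapped throughout, with a difference of -0.10 ± 0.18.

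**Figure D4:**
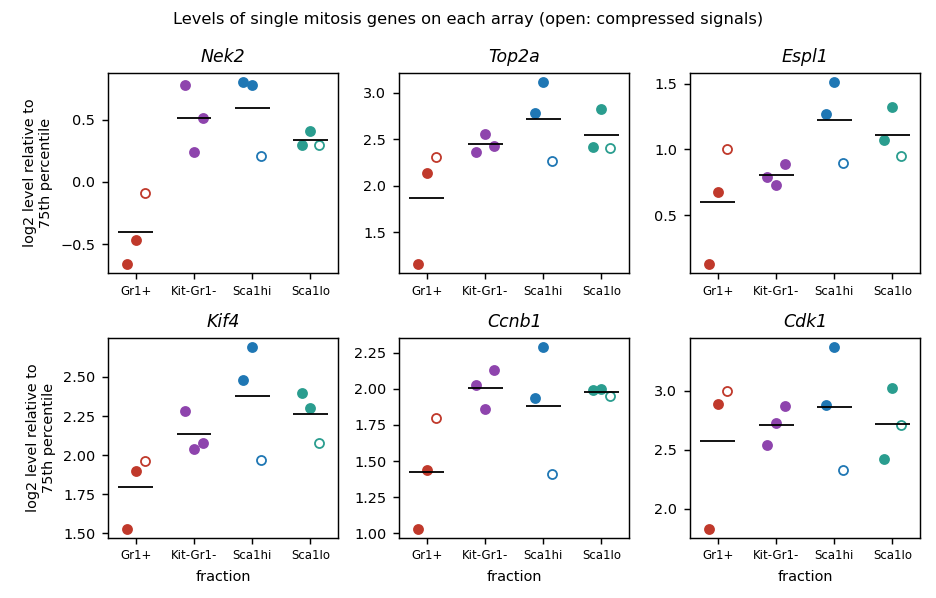
Log2 level relative to the array's 75th percentile (vertical axes, scaled for each gene) of 6 mitosis genes on the 12 sorted arrays by fraction, with lines at the means and open circles for compressed arrays. For Nek2 the 3 Gr1+ points (-0.66 to -0.09) lie below all other points, whereas for Cdk1 only Gr1+ replicate 1 (1.83) does.

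The promoters of the 5 mitosis genes with the lowest adjusted p between Gr1+ and Kit+Gr1- cells are shown because mitosis genes share known promoter elements. The CHR element, with the core TTTGAA or the variant TTCGAA, is bound by the DREAM and MuvB complexes, and CCAAT by NF-Y. Windows ran from 250 bases before to 50 after the RefSeq start (GRCm38.p6), were read 5′ to 3′ on the gene's strand and were searched on both strands. Matches are in capitals, and those on the opposite strand read TTCAAA for TTTGAA and ATTGG for CCAAT, while TTCGAA reads alike on both. They stand at chr1:191821223-191821522 on the + strand for Nek2, chr11:99024140-99024439 on the - strand for Top2a, chr15:102296043-102296342 (+) for Espl1, chrX:100625815-100626114 (+) for Kif4 and chr13:100786437-100786736 (-) for Ccnb1.
Nek2: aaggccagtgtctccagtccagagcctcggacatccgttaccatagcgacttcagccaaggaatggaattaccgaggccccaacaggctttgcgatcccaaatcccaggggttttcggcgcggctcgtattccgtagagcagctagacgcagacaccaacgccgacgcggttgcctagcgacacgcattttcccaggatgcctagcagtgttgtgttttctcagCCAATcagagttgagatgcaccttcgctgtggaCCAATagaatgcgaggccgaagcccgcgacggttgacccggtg
Top2a: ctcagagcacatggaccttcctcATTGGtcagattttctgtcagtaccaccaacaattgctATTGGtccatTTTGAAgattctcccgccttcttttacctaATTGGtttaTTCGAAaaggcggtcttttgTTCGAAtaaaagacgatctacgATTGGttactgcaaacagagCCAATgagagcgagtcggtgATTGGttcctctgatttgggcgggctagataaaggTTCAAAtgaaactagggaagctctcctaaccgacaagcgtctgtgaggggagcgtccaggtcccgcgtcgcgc
Espl1: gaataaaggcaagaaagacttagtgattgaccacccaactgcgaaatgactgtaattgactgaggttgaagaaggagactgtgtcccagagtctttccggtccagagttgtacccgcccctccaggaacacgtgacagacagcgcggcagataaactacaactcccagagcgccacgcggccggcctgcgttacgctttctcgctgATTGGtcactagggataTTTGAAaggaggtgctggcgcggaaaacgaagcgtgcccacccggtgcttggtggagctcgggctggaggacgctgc
Kif4: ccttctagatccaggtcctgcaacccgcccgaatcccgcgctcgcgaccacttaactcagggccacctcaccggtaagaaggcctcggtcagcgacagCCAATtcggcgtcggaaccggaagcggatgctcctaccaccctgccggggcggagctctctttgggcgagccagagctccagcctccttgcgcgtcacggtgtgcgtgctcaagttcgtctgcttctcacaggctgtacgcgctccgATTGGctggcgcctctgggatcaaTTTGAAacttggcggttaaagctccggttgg
Ccnb1: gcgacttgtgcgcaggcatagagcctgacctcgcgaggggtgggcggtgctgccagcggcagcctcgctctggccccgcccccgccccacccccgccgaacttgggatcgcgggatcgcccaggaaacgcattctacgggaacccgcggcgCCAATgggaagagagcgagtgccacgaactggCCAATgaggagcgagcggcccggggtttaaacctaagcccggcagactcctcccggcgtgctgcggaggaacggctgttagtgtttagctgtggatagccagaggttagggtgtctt

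Nek2, the gene that passed the test, had 2 CCAAT matches, beginning at bases -26 and 8 from the start, and neither core. Top2a had 6 CCAAT matches, 2 of TTTGAA and 2 of TTCGAA, Espl1 had 1 CCAAT and 1 TTTGAA (at -44 and -27), Kif4 had 2 CCAAT and 1 TTTGAA, and Ccnb1 had 2 CCAAT alone. Windows were at hand for 30 of the 36 genes (32 windows, those of Cenpf and Mki67 included), and not for Aurkb, Ccna2, Foxm1, Incenp, Kif20a and Tpx2. TTTGAA occurred in 71.9% of the members' windows against 17.9% of all 32851 windows, TTCGAA in 9.38% against 1.56%, and CCAAT in 78.1% against 37.4%. A core of either kind together with CCAAT occurred in 68.8% of the members' windows and 7.52% of all, and 4 of the members' 86 matches overlapped another match. A match in a window is a description of its letters and does not show that a factor binds there.

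The second comparison set Kit-Gr1- cells against the same 6 Kit+Gr1- arrays, so that it shares those arrays with the first. Differences in mitosis genes between Kit-Gr1- and Kit+Gr1- cells lay between -0.75 and 0.35. None of the 34 passed the test at 2-fold or at any fold, where 0.282% of all genes rose and 0.0640% fell at 2-fold, and 24 of 34 lay lower and 10 higher (70.6% and 29.4%, against 69.6% and 30.4% of all genes). Their median difference was -0.08, against -0.23 over all genes. The range ran from Ttk (-0.75 ± 0.62), Kif23 (-0.51 ± 0.20), Ndc80 (-0.46 ± 0.49), Kif2c (-0.36 ± 0.28) and Espl1 (-0.36 ± 0.20) to Bub3 (0.11 ± 0.23), Pttg1 (0.13 ± 0.20), Mad2l1 (0.16 ± 0.20), Ccnb2 (0.23 ± 0.22) and Cenpa (0.35 ± 0.30). Espl1 was the single gene whose groups did not overlap (2.94% of members, against 2.38% of all genes lower), and its differences within slides were -0.38, -0.58 and -0.62.

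Comparison within slides moved Kit-Gr1- cells a little lower. Within slides 1, 2 and 3 the members' median was -0.09, -0.26 and -0.48, where that of all genes was -0.12, -0.04 and 0.04, and 23 of 34 (67.6%, against 23.4% of all genes) lay lower in all 3. All 8 spindle motors and microtubule proteins lay lower in Kit-Gr1- cells, with a median of -0.22, which is close to the -0.23 of all genes, of which 69.6% lay lower (with median scaling 5 of all 34 members lay lower). The 3 cyclins with Cdk1 had a median of 0.01, with the probes used at 0.07 for Ccnb1 and -0.07 for Cdk1. Their other kept probes were lower, at -0.28 and -0.23 for Ccnb1 and -0.46 for Cdk1. With the slide block the median of the 34 was -0.27 against -0.05 over all genes, and again none passed. The direction depended on the scaling: the median was 0.24 with arrays scaled to their medians and 29 of 34 were then higher, where all genes had a median of 0.09, and it was -0.25 under quantile normalization with 32 lower, where all genes had 0.01. Without Sca1hi replicate 2 it was 0.03.

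The third comparison set Kit-Gr1- cells against Gr1+ cells (3 against 3 arrays), and so shares its arrays with the first and the second. Here 27 of 34 lay higher in Kit-Gr1- cells (79.4%, against 33.5% of all genes) and 7 lower (20.6%, against 66.5%), with a median of 0.25 where all genes had -0.20. None passed with a 2-fold change, where 1.65% of all genes were higher and 2.44% lower. Nek2 was higher at any fold by 0.92 ± 0.22 (189.6% of the Gr1+ level, adjusted p = 0.0263), or 1 of 34 against 2.70% of all genes. Its differences were 1.44, 0.72 and 0.61 within slides 1, 2 and 3. Over the 25 alternatives its adjusted p ran from 0.00173 to 0.286, and it passed in 18. It did not pass without Gr1+ replicate 1 (adjusted p = 0.101) or 2 (0.125), without Kit-Gr1- replicate 1 (0.13) or 3 (0.0966), with all 14 arrays (0.119), with median scaling (0.286) or unscaled (0.159). Here the probe settings, the replicate block and leaving out a Kit+Gr1- array were bound to keep its difference, so the 18 are not separate tests. With the slide block Nek2 and Ccnb1 were higher at any fold (5.88% of members, against 8.28% of all genes). Without the 3 compressed arrays the same genes passed at any fold (5.88%, against 7.02%), and Nek2 rose by at least 2-fold in Kit-Gr1- cells (1.08 ± 0.18, adjusted p = 0.00629), or 2.94% of members against 2.59% of all genes. With both changes Ccnb1, Cenpa, Nek2, Pttg1, Top2a and Tpx2 were higher at any fold (17.6%, against 11.5%), and Nek2 alone by at least 2-fold (2.94%, against 2.62%). Without the compressed arrays Gr1+ cells were again represented by replicates 1 and 2 alone.

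In 13 of the 34 genes every Kit-Gr1- array lay above every Gr1+ array (38.2%, against 13.6% of all genes): Birc5, Ccnb1, Ccnb2, Cdc20, Cdca8, Cenpa, Cenpe, Kif4, Mad2l1, Nek2, Pttg1, Top2a and Tpx2. No member had its groups apart in the other direction, where 14.1% of all genes did. After Nek2 the largest differences were Cenpa (0.70 ± 0.34), Ccnb1 (0.58 ± 0.23), Top2a (0.58 ± 0.29) and Ccnb2 (0.50 ± 0.24), and those at the other end were Kif23 (-0.46 ± 0.23), Ndc80 (-0.11 ± 0.56), Prc1 (-0.10 ± 0.27), Kif2c (-0.09 ± 0.32) and Aurka (-0.06 ± 0.26). Slide 1 held most of it, since the members' median was 0.68, 0.05 and 0.01 within slides 1, 2 and 3 (all genes -0.16, 0.04 and -0.32), and without Gr1+ replicate 1 it was 0.04 (all genes -0.15). In all 3 slides 16 of 34 were higher (47.1%, against 19.6% of all genes). Slide 3 again used the compressed Gr1+ replicate 3, and all genes were not matched for level. With median scaling 33 lay higher, with a median of 0.55 against 0.10 over all genes, of which 42.8% lay lower. Under quantile normalization 24 lay higher, with a median of 0.16 against 0.09 over all genes (42.3% lower), so that the members then differed from all genes by 0.07, against 0.45 as first given.

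The fourth comparison, Sca1hi against Sca1lo cells (3 against 3 arrays), gave no difference in mitosis genes that passed the test. None of the 34 passed in limma, where 0% of all genes did (263 of 31240 at an unadjusted p under 0.05), 18 lay higher (52.9%, against 47.3% of all genes) and 16 lower (47.1%, against 52.7%), and the median was 0.02 against -0.02 over all genes. The highest were Ttk (1.14 ± 0.72) and Ndc80 (0.85 ± 0.56), through Sca1hi replicate 3, followed by Nusap1 (0.48 ± 0.24), Kif23 (0.39 ± 0.23) and Kif11 (0.28 ± 0.26), and the lowest were Ccnb2 (-0.25 ± 0.27) and Bub1 (-0.24 ± 0.25). The other kept probe of Kif11 differed by 1.14 here. Between Kit-Gr1- and Kit+Gr1- cells it differed by -0.87 (-0.21 for the probe used). Between Kit-Gr1- and Gr1+ cells it differed by -0.20 (0.27 for the probe used). Nusap1, at 1.54, 1.79 and 1.28 on Sca1hi arrays and 1.02, 1.22 and 0.93 on Sca1lo arrays, and Kif11 had groups that did not overlap (5.88% of members, against 1.36% of all genes higher). Within both slide 1 and slide 4, 6 of 34 lay higher (17.6%, against 32.0% of all genes) and 7 lower (20.6%, against 25.1%). The members' median was 0.14 within slide 1 and -0.37 within slide 4, where all genes had 0.01 and 0.10. The median over all arrays moved between -0.16 without Sca1hi replicate 2 and 0.25 without Sca1hi replicate 3. Its direction also turned on the scaling. With median scaling it was -0.11 with 24 lower, where all genes had -0.16 with 65.5% lower, and under quantile normalization 0.21 with 32 higher, where all genes had -0.08 with 59.2% lower.

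Lists of related genes, chosen with earlier results of these data known, were set beside the 34. Of 80 other mitosis genes none passed at 2-fold between Gr1+ and Kit+Gr1- cells, 5 fell at any fold (3.22% of all genes did), 74 lay lower and the median was -0.33, from Cenpp (-0.90 ± 0.21), a centromere protein, to Sgo2a (0.44 ± 0.27), a shugoshin that protects sister cohesion. Of 34 genes of the G1/S step and DNA replication 33 lay lower, with a median of -0.56 and none called, and 6 fell at any fold (again beside 3.22% of all genes), among them Pole, the catalytic subunit of DNA polymerase epsilon (-0.97 ± 0.20, adjusted p = 0.00826). In the same contrast 4 of 17 cell cycle inhibitors rose, where 3.04% of all genes did, namely Cdkn2b (2.27 ± 0.34, adjusted p = 0.00123) and Cdkn2a (2.20 ± 0.47, adjusted p = 0.0105), inhibitors of the G1 kinases Cdk4 and Cdk6, Btg1 (1.67 ± 0.33, adjusted p = 0.00623), an antiproliferative gene, and Gadd45a (1.63 ± 0.23, adjusted p = 0.000651), a stress gene. Cdkn1c, an inhibitor of cyclin kinases known in quiescent stem cells, fell by 1.37 ± 0.32 (adjusted p = 0.0189), where 1.29% of all genes fell. Of 18 regulators of mitosis genes 1 rose, where 3.04% of all genes did, namely E2f2, an activator of S phase genes (1.52 ± 0.29, adjusted p = 0.00505). The median of the regulators was -0.33. E2f5 (-0.91 ± 0.21, adjusted p = 0.0184) and E2f7 (-0.91 ± 0.25, adjusted p = 0.0449), E2F factors that repress transcription, fell at any fold, where 3.22% of all genes did, and are named after their values were seen.

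Between Kit-Gr1- and Kit+Gr1- cells the medians were -0.04 for other mitosis genes, -0.03 for G1/S and replication genes and 0.46 for inhibitors. Rb1, the retinoblastoma protein that restrains E2F factors, rose by 1.34 ± 0.21 (adjusted p = 0.0147), the 1 inhibitor of 17 that passed, where 0.282% of all genes rose. Between Kit-Gr1- and Gr1+ cells Gadd45g, a relative of Gadd45a, was 2.70 ± 0.44 higher (adjusted p = 0.0025), Tyms, the thymidylate synthase, 1.02 ± 0.24 higher (adjusted p = 0.0245), and Btg1 fell (-1.47 ± 0.38, adjusted p = 0.0391). These were 1 higher and 1 lower of 17 inhibitors, and 1 higher of 34 G1/S and replication genes. Of all genes 1.65% were higher and 2.44% lower there. Between Sca1hi and Sca1lo cells no gene of these lists passed.

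**Figure D5:**
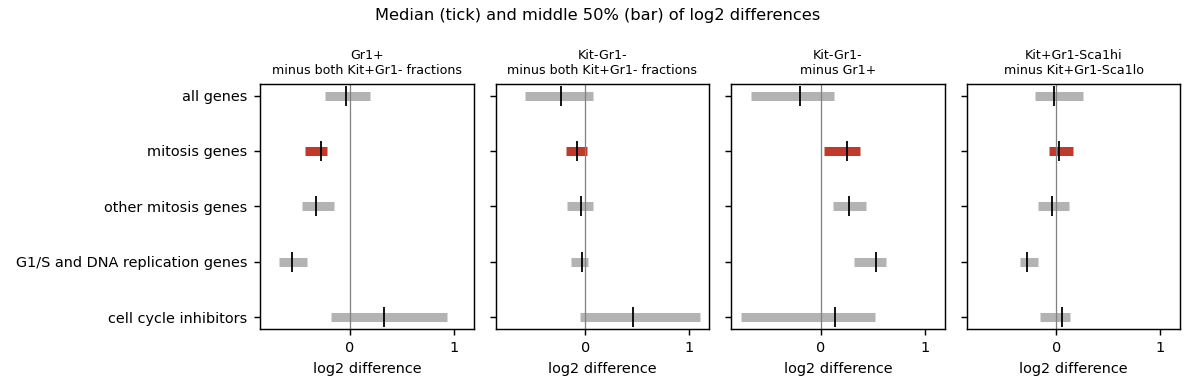
Median (tick) and middle 50% (bar) of the log2 differences in the 4 comparisons, for all genes, the 34 mitosis genes (red) and 3 lists of related genes. Between Gr1+ and Kit+Gr1- cells the mitosis genes centre at -0.28 and the G1/S and replication genes at -0.56, against -0.04 for all genes and 0.33 for inhibitors.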

How the data were processed

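RNA of 14 FDCPmix samples was measured on single-colour Agilent arrays. Per the file headers, the authors read the scans with Agilent Feature Extraction 10.1.1.1, and the processed intensity in the deposited scanner output was background-subtracted within the array. The deposited series matrix holds log2 values that equal the log2 of that intensity (largest difference 5e-09), so it is unscaled. Control spots and outlier-flagged spots were left out, spots of a probe averaged, and each array's 75th percentile of log2 processed intensity subtracted.

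The filter kept the 38869 probes that were well above background on 3 or more of the 12 sorted arrays. Accessions were named through RefSeq (GRCm38.p6), and the brightest kept probe stood for a gene, leaving 31240 genes, 16258 with a symbol. Of the members 9 had several kept probes. The largest spread between probes of a gene in the 4 comparisons was 0.36 (Bub3), 0.66, 0.47 and 0.86 (Kif11 each time). Probes of both signs occurred for Kif23 in the first comparison and for Cdk1 and Kif11 in the third. In the second and the fourth they occurred for Bub3 and Ccnb1. The 12 sorted arrays were fitted together by limma 3.58.1 under R 4.3.3 (lmFit and eBayes with a trend, 4 groups, 8 residual degrees of freedom, prior 4.89), two-sided, with Benjamini-Hochberg adjustment over all genes. Tables and figures used matplotlib 3.10.9, numpy 2.4.6 and pandas 2.3.3 under Python 3.11.15. The fit was tested on simulated normal values with each gene's own spread, for Gr1+ against Kit+Gr1- cells. Of 100 genes changed by 1 on the log2 scale 14 were called, where a call itself needs an estimate of at least 1. Of 100 genes changed by 3, 74 were called, and 4 unchanged genes were called. A gene that did not pass may thus still differ by 2-fold. The simulated spread was set gene by gene, without deviations shared by an array or slide. The 4 false calls therefore do not give the false call rate in these data. The number of arrays limits the precision.

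Members and lists were chosen with earlier results of these data known. Array values were given for Cdk1, Ccnb1, Foxm1, any called member and, in each role, the 2 members with the largest difference between Gr1+ and Kit+Gr1- cells, and other members by their difference. Promoters were printed for at most 5 genes with array values and a motif match. Array values of Nusap1 were added after its values were seen. Alternatives covered scaling, background correction (normexp with an offset of 50 on the median spot signal), probe filter, probe choice, slide and replicate blocks, all 14 arrays, array weights, and leaving out arrays. The slide block without the 3 compressed arrays was added after seeing the data.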

Additional observations from a re-analysis of the deposited data

How the results depend on the processing

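The alternatives were the other scalings and filters, blocks, array weights and left-out arrays, and no result changed sign while called. The number of mitosis genes called lower in Gr1+ against Kit+Gr1- cells, 0 as reported, was 1 in the unscaled series matrix, 1 with array weights, 2 without the 3 compressed arrays, 2 with the slide block and without them, 1 with no minimum fold, and 0 to 1 with 1 array left out (1 without Gr1+ replicate 3). The number higher in Kit-Gr1- against Gr1+ cells, also 0, was 1 without the compressed arrays, 1 with the slide block and without them, 1 with no minimum fold, and 0 to 1 with 1 array left out. In the first 3 of these settings 2.59%, 2.62% and 2.70% of all genes were higher, close to the 2.94% of members. The median difference between Kit-Gr1- and Kit+Gr1- cells, -0.08, was 0.24 with median scaling and -0.31 unscaled, where all genes shifted to 0.09 and -0.46, and this shift follows from the scaling itself. With the replicate block the 4 medians were -0.28, -0.08, 0.25 and 0.02, as without it. Each sorted fraction holds every replicate number, so this block cannot move the difference of a gene kept on all arrays. The equal medians therefore do not test the differences. Of 18 pairs with the same replicate number 13 had deviations that correlated above 0.1 (range -0.296 to 0.855), against 10 of 34 pairs that shared neither number nor slide (-0.84 to 0.623) and 10 of 13 on the same slide. Since not every same-number pair did, the numbers were not taken as a pairing, and some sharing by number or slide was not excluded. The slide was likewise left out of the first fit, although 10 of 13 same-slide pairs correlated above 0.1. Results with the slide block are therefore given beside it. Over all genes 1354, 108, 1279 and 0 were called in the 4 comparisons. Counts that differed by more than 1.5 times were 663, 22 and 534 with all 14 arrays, 693, 44 and 561 with median scaling, 2190, 923, 1933 and 21 with array weights (fitted gene by gene), 182 (Kit-Gr1- against Kit+Gr1-) and 3 (Sca1hi against Sca1lo) with the slide block, 247 and 2 for these with the replicate block, and 2233, 332 and 2056 with the slide block and without the compressed arrays. With 1 array left out they ran from 863 to 1661, 26 to 162, 732 to 1625 and 0 to 1. Of the genes called between Gr1+ and Kit+Gr1- cells 70.2% were higher, against 81.0% with median scaling and 49.6% unscaled, and of those between Kit-Gr1- and Kit+Gr1- cells 81.5%, against 95.5% and 58.5%. The 3 arrays a fraction limit which differences of this size can pass.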

Other observations

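Promoter windows of the 75 other mitosis genes that had one (83 windows) held TTTGAA in 50.6%, CCAAT in 67.5% and a core together with CCAAT in 38.6% of windows, against 71.9%, 78.1% and 68.8% in the members' windows and 17.9%, 37.4% and 7.52% in all windows. More than 1 CCAAT occurred in 53.1% of the members' windows, 36.1% of those of other mitosis genes and 11.7% of all. These shares were not tested. Ndc80 measured 1.98 on unfractionated replicate 1 and -0.98 on replicate 2, against -1.98 to 1.22 on the sorted arrays, and Cdc20 measured 2.33 and 5.08, against 4.70 to 5.78.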
